A study of Saccharomyces cerevisiae with 4 samples.

Results

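The genes described here encode the oxidative phosphorylation machinery of budding yeast: the NADH dehydrogenases, complexes II, III and IV, the ATP synthase, and factors that assemble complex IV and the ATP synthase. They were chosen by gene symbol, with earlier results of these data known. Probes annotated COX, QCR or ATP followed by a number were taken, together with SDH1 to SDH4, CYT1, COR1, RIP1, NDI1, NDE1 and NDE2. COX5A and COX5B, the isoforms of one complex IV subunit, were not counted as members. The choice gave 49 genes with 1 probe each, out of 6195 features on the arrays (genes, and probes without a gene name). By role they were 3 NADH dehydrogenases, 4 subunits of complex II, 9 of complex III, 7 of complex IV, 11 of the ATP synthase, 9 complex IV assembly factors and 6 ATP synthase assembly factors. All 49 are nuclear genes. The mitochondrially encoded subunits were not analysed here.

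The arrays were spotted DNA microarrays read in 2 colours, and the messenger RNA came from Saccharomyces cerevisiae. The design asked how loss of Snf2, the ATPase of the nucleosome remodeler SWI/SNF, and loss of its conserved SnAC domain alter expression. The 4 arrays held a snf2 null (Δsnf2 in BY4741) against wild-type BY4741, a strain carrying Snf2 without its SnAC domain (PSY3) against its wild type Snf2-2FLAG (PSY2), and each of these wild types against itself. In Snf2-2FLAG the Snf2 protein is epitope-tagged, while the null and its BY4741 control do not, so the mutants differ in background as well as in the lesion. The medium was YPD, which is rich in glucose, and cells were collected at an optical density of 0.8 after growth at 25 C. With 1 array per group there is no replicate error for any value, and no difference could be tested.

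Values are the deposited log ratios of the named strain over its wild type, read as log2, minus the median of the array, so that 0 is the middle feature. Every order of genes below, such as the highest or lowest of a complex, is by these centred values unless said otherwise. The medians removed were 0.004 for the null, -0.39 for the SnAC deletion, -0.125 for BY4741 and 0.104 for Snf2-2FLAG. The number of arrays limits the precision. The self-hybridisations show how far features stray from 0 when both channels hold the same strain. The central 95% of features ran from -0.31 to 0.30 on the BY4741 array and from -0.45 to 0.51 on the Snf2-2FLAG array. It is unknown whether the channels of each were labelled from the same RNA or from cells grown apart. If from the same RNA, their spread leaves out variation between cultures, which the mutant arrays include. SNF2 itself read -2.14 in the null and -0.19 on the BY4741 array, and it had no value on the other arrays, which leaves the SnAC deletion without such a check. A lower ratio from fewer cells using a gene and one from less RNA per cell cannot be told apart.

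In yeast, electrons from NADH enter the chain through single-subunit NADH dehydrogenases instead of a proton-pumping complex I. Succinate dehydrogenase, complex II, feeds electrons from the TCA cycle to ubiquinone. Complex III, the cytochrome bc1 complex, passes them to cytochrome c, and complex IV, cytochrome c oxidase, passes them to oxygen. The proton gradient built by complexes III and IV drives the ATP synthase. In glucose many of these genes are held at a low level, and the Hap2/3/4/5 complex activates them when cells respire.

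Most structural subunits of each complex read higher in both mutants, by moderate amounts. The assembly factors among the members had medians near the middle of the arrays. In the null the 31 subunits of complexes II to V, where V is the ATP synthase, had a median of 0.49, a factor of 1.41, and in the SnAC deletion the 30 with a value had a median of 0.43, a factor of 1.34. The 15 assembly factors had medians of 0.03 and 0.06. The median over all features was -0.001 in the null against 0 in the SnAC deletion. Of the 31 subunits, 30 lay above the array median in the null and 29 of 30 did in the SnAC deletion, where by construction about as many features lie above as below. Without centring the SnAC deletion values are lower by 0.39, and the median over its 48 measured members turns from 0.35 to -0.04.

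**Figure D1:**
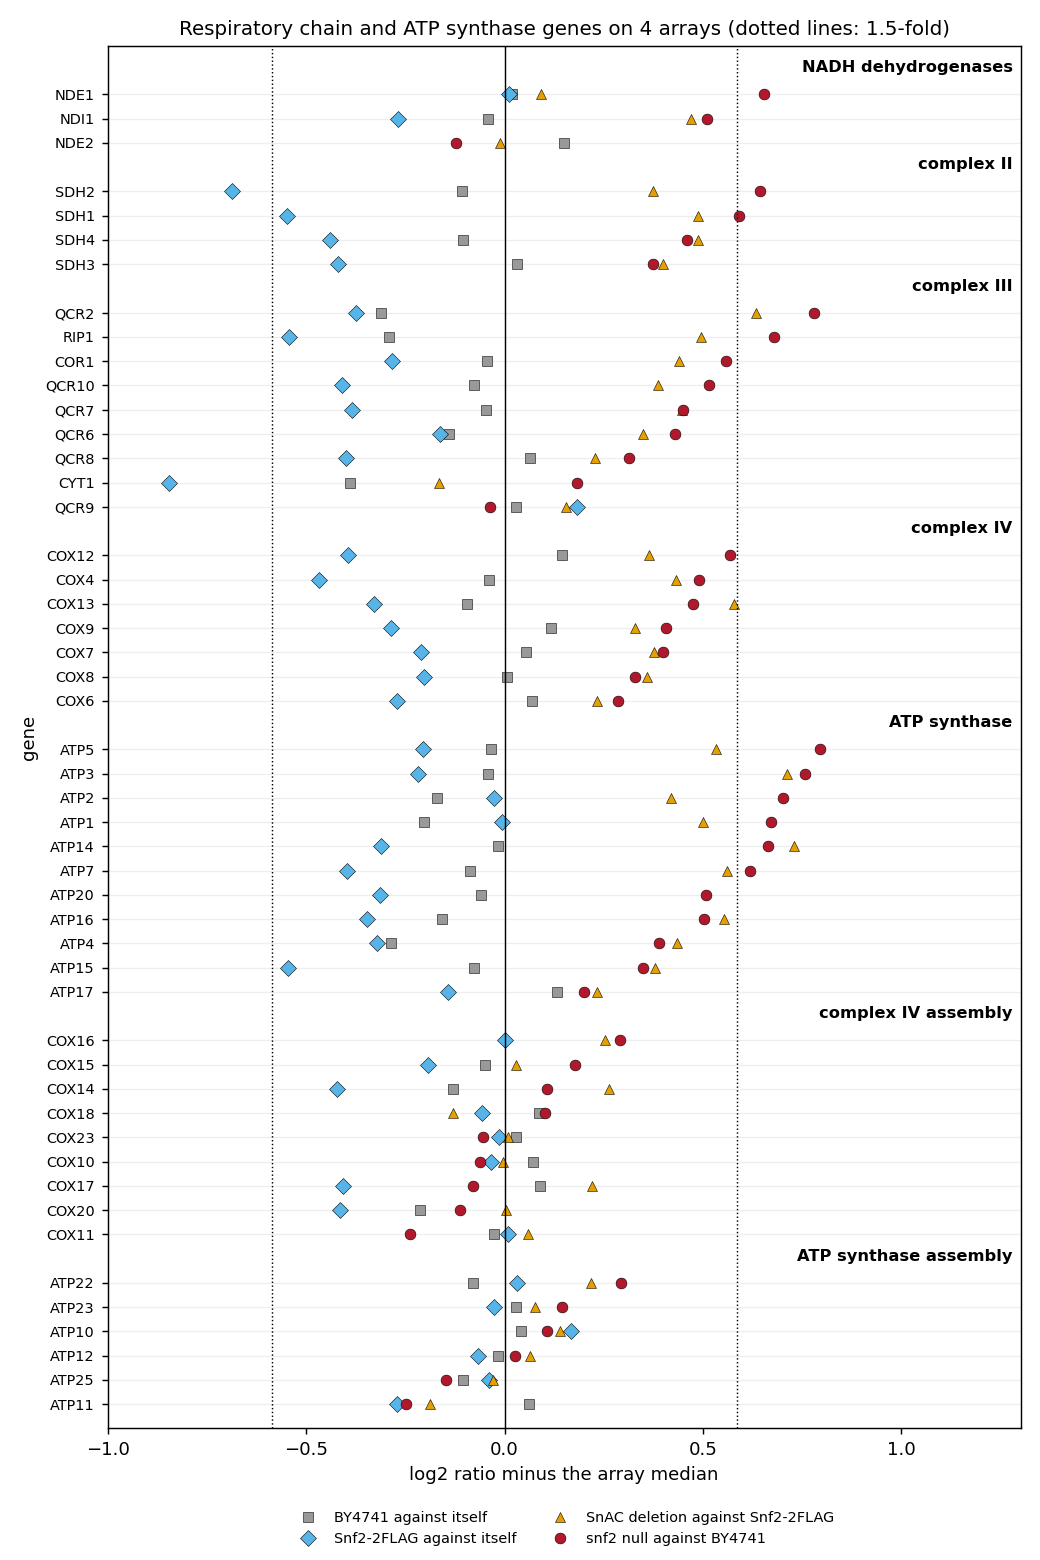
Each row is a gene and each symbol its log2 ratio minus the array median on 1 of the 4 arrays, with genes ordered by the null within their role and dotted lines at 1.5-fold. The null (circles) and SnAC deletion (triangles) values of most subunits lie right of 0, the Snf2-2FLAG self-hybridisation (diamonds) lies left of 0 for 42 of 48 members, and the assembly factors scatter around 0 in both mutants.

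By size, 11 of 49 members (22.4%) were at least 1.5-fold higher in the null, where 4.28% of all features were, and 0 were 1.5-fold lower, where 3.27% of features were. In the SnAC deletion 3 of 48 members (6.25%) were at least 1.5-fold higher, against 3.12% of features, and 0 were lower, against 2.56%. No member was 2-fold higher or lower in either mutant on the centred values. On those values 1.26% of features were 2-fold higher and 1.59% lower in the null. In the SnAC deletion 0.866% were higher and 1.19% lower. Once the self-hybridisation was subtracted, 5 of 47 members were 2-fold higher in the SnAC deletion, beside 1.87% of features under the same subtraction. In the null 1 of 47, QCR2, was, beside 1.63%.

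The members were also set against the spread of the self-hybridisation of each background. As that spread may leave out variation between cultures, these counts are read beside the shares of all features only. In the null 29 of 49 members (59.2%) lay above the central 95% of the BY4741 array, as did 13.7% of all features. In the SnAC deletion 7 of 48 members (14.6%) lay above the central 95% of the Snf2-2FLAG array, as did 4.11% of features. The Snf2-2FLAG array is the wider of the self-hybridisations, with a robust SD over features of 0.22 against 0.14 for BY4741, so this count is stricter for the SnAC deletion. None of the 15 assembly factors lay above that range in either mutant.

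The ATP synthase was the highest of the complexes by median on the centred values, at 0.62 in the null against 0.52 in the SnAC deletion. With the self-hybridisation subtracted it stayed so in the null at 0.68, but in the SnAC deletion its 0.83 was below the 0.98 of complex II. Its catalytic head, F1, is built from alpha (ATP1), beta (ATP2), gamma (ATP3), delta (ATP16) and epsilon (ATP15). ATP3 (YBR039W), the gamma subunit of the rotor, read 0.76 in the null, 0.71 in the SnAC deletion, -0.04 in BY4741 and -0.22 in Snf2-2FLAG. ATP2 (YJR121W), the beta subunit that makes ATP, read 0.70, 0.42, -0.17 and -0.03 in the same order. ATP1 (YBL099W), the alpha subunit, read 0.67, 0.499, -0.20 and -0.007. These genes were 1.59-fold to 1.69-fold higher in the null, and their mutant values lay above both self-hybridisations. ATP16 read 0.50 in the null against 0.55 in the SnAC deletion, and ATP15 read 0.35 and 0.38, the least of the head.

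The peripheral stalk, which keeps the head from turning with the rotor, had medians of 0.64 and 0.55. Its top connector ATP5 (YDR298C), the oligomycin sensitivity-conferring protein, was the highest member of all in the null on the centred values at 0.796, 1.74-fold, and read 0.53 in the SnAC deletion, -0.03 in BY4741 and -0.21 in Snf2-2FLAG. ATP14 (YLR295C), subunit h, was the highest member in the SnAC deletion at 0.73, 1.66-fold, and read 0.67 in the null, -0.02 in BY4741 and -0.31 in Snf2-2FLAG. ATP7, subunit d, read 0.62 and 0.56, and ATP4, subunit b, read 0.39 and 0.435, in the null and the SnAC deletion. Of the membrane subunits measured, ATP20, subunit g, which takes part in dimer formation, read 0.51 in the null, -0.06 in BY4741 and -0.31 in Snf2-2FLAG, and it had no value in the SnAC deletion. ATP17 (YDR377W), subunit f, was the lowest of the enzyme in both mutants at 0.20 in the null, 0.23 in the SnAC deletion, beside 0.13 in BY4741 and -0.14 in Snf2-2FLAG. The null exceeded its self-hybridisation by only 0.07 for this gene.

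**Figure D2:**
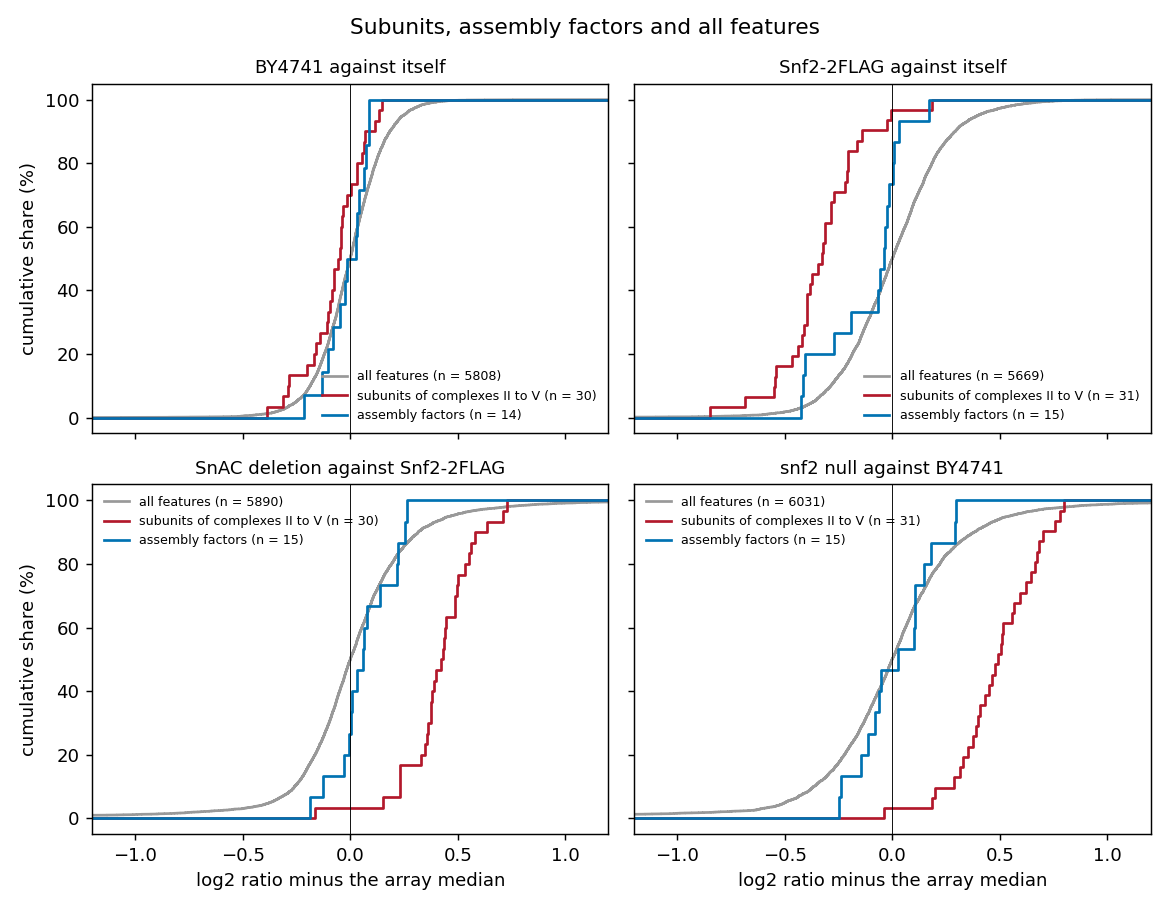
Cumulative share of features (vertical axis, %) up to a given log2 ratio minus the array median (horizontal axis), for all features, the subunits of complexes II to V and the assembly factors, 1 panel per array, with the range beyond 1.2 on either side not drawn. The subunits are displaced to the right in both mutants and to the left on the Snf2-2FLAG self-hybridisation, where their median was -0.33, while the assembly factors run close to all features in the mutants.

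Complex II followed, with medians of 0.53 in the null against 0.44 in the SnAC deletion and all 4 genes above 0 in both. SDH2 (YLL041C), the iron-sulphur subunit, was its highest in the null at 0.64 and its lowest in the SnAC deletion at 0.37, and it read -0.11 in BY4741 and -0.69 in Snf2-2FLAG. SDH1 (YKL148C), the flavoprotein that oxidises succinate, read 0.59, 0.488 and -0.55 in the null, the SnAC deletion and Snf2-2FLAG, with no value in BY4741. SDH3 (YKL141W), a membrane anchor and the lowest of the complex in the null at 0.37, read 0.40 in the SnAC deletion, 0.03 in BY4741 and -0.42 in Snf2-2FLAG. The other anchor, SDH4, read 0.46 in the null against 0.487 in the SnAC deletion. The anchors thus differed between the mutants by no more than 0.03, and SDH2 by 0.27. These 4 genes also belong to the TCA cycle. SDH3 and SDH4 have the related genes SHH3 and SHH4, whose RNA could reach their probes, and SHH3 read 0.01 in the null against 0.03 in the SnAC deletion.

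Complex III had medians of 0.45 and 0.39 with the widest spread among its subunits. QCR2 (YPR191W), a core protein, was its highest in both mutants at 0.78 in the null against 0.63 in the SnAC deletion, beside -0.31 in BY4741 and -0.37 in Snf2-2FLAG. RIP1 (YEL024W), the Rieske iron-sulphur protein that takes electrons from ubiquinol, read 0.68, 0.49, -0.29 and -0.54 in the same order. COR1, the other core protein, read 0.56 and 0.44 in the mutants, and the small subunits QCR6, QCR7, QCR8 and QCR10 ran from 0.31 to 0.515 in the null and from 0.23 to 0.45 in the SnAC deletion.

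CYT1 and QCR9 stood apart from the rest of complex III. CYT1 (YOR065W), cytochrome c1, which hands electrons to cytochrome c, read 0.18 in the null, -0.17 in the SnAC deletion, -0.39 in BY4741 and -0.85 in Snf2-2FLAG. It was the lowest subunit in the SnAC deletion and the lowest member on both self-hybridisations. Each mutant lay above the self-hybridisation of its background, by 0.57 in the null against 0.68 in the SnAC deletion, which is close to the medians of complex III computed in that way, 0.57 and 0.72. QCR9 (YGR183C), a small subunit, read -0.04 in the null, 0.15 in the SnAC deletion, 0.03 in BY4741 and 0.18 in Snf2-2FLAG. It lay below its self-hybridisation in both mutants, by -0.07 and -0.03, which no other subunit of complexes II to V with both values did.

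Complex IV had the lowest medians of the complexes in both mutants, 0.41 and 0.36, and its 7 nuclear subunits were close together, from 0.29 to 0.57 in the null and from 0.23 to 0.58 in the SnAC deletion. COX12 (YLR038C), subunit VIb, was the highest in the null at 0.57 and read 0.36 in the SnAC deletion, 0.15 in BY4741 and -0.395 in Snf2-2FLAG. COX13 (YGL191W), subunit VIa, was the highest in the SnAC deletion at 0.58 and read 0.475 in the null, -0.095 in BY4741 and -0.33 in Snf2-2FLAG. COX6 (YHR051W), subunit VI, was the lowest in both, at 0.29 and 0.23, beside 0.07 in BY4741 and -0.27 in Snf2-2FLAG. None of the 7 genes was 1.5-fold higher in either mutant, where 4.28% of all features were in the null, against 3.12% in the SnAC deletion. Above the central 95% of the self-hybridisation lay 6 of the 7 in the null, beside 13.7% of features, and 1 of the 7 in the SnAC deletion, beside 4.11%. The core subunits of this complex are made in the mitochondrion, so these values concern the outer, regulatory and structural subunits.

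The NADH dehydrogenases differed among themselves. NDI1 (YML120C), which oxidises NADH of the matrix, read 0.51 in the null, 0.47 in the SnAC deletion, -0.04 in BY4741 and -0.27 in Snf2-2FLAG. NDE1 (YMR145C), the main enzyme for cytosolic NADH, read 0.655 in the null against 0.09 in the SnAC deletion, with 0.02 in BY4741 and 0.01 in Snf2-2FLAG. Its paralog NDE2 (YDL085W) read -0.12, -0.01 and 0.15 in the null, the SnAC deletion and BY4741, with no value in Snf2-2FLAG. NDE1 was thus 1.57-fold higher in the null and 1.07-fold in the SnAC deletion, the largest difference between the mutants of any member on the centred values. With the self-hybridisations subtracted the difference was 0.55 for NDE1 and larger for COX17 at -0.80. As NDE1 and NDE2 are related in sequence, their probes may share some signal.

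The assembly factors for complex IV, which insert haem and copper and guide the core subunits, had medians of -0.05 in the null against 0.03 in the SnAC deletion. COX16 was the highest in the null at 0.29 and read 0.25 in the SnAC deletion and 0.001 in Snf2-2FLAG, with no value in BY4741. COX14, a regulator of Cox1 synthesis, was the highest in the SnAC deletion at 0.26 and read 0.11 in the null, -0.13 in BY4741 and -0.42 in Snf2-2FLAG. On the centred values these highest values are below the medians of every complex. With the self-hybridisation subtracted in the SnAC deletion, COX14 at 0.69 and COX17 at 0.63 passed 1.5-fold, where 7.59% of all features did. Before subtraction COX14 and COX17 read 0.26 and 0.22 in the SnAC deletion, and -0.42 and -0.41 in Snf2-2FLAG. Both were then above the complex IV median of 0.61, while the complex IV assembly factors had a median of 0.22. COX11 (YPL132W), needed to build the copper site of Cox1, was the lowest in the null at -0.24 and read 0.06 in the SnAC deletion, -0.03 in BY4741 and 0.01 in Snf2-2FLAG. COX18, which exports the tail of Cox2, was the lowest in the SnAC deletion at -0.13, with 0.10 in the null, 0.09 in BY4741 and -0.06 in Snf2-2FLAG. The haem A synthesis genes COX10 and COX15 read -0.06 and 0.18 in the null and -0.004 and 0.03 in the SnAC deletion. COX17, a copper chaperone, read -0.08 in the null, 0.22 in the SnAC deletion, 0.09 in BY4741 and -0.41 in Snf2-2FLAG. COX20, the chaperone of Cox2, read -0.11 and 0.003 in the mutants, and COX23 read -0.05 and 0.01.

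Assembly factors of the ATP synthase had medians of 0.07 in both mutants. ATP22, needed to translate the mitochondrial ATP6 message, was the highest in both at 0.29 and 0.22, beside -0.08 in BY4741 and 0.03 in Snf2-2FLAG. ATP11, the chaperone of the beta subunit, was the lowest in both at -0.25 and -0.19, beside 0.06 in BY4741 and -0.27 in Snf2-2FLAG, while ATP12, the chaperone of alpha, read 0.03 and 0.065. The chaperoned subunits themselves, ATP2 and ATP1, read 0.70 and 0.67 in the null. ATP10, ATP23 and ATP25 ran from -0.15 to 0.145 in the null and from -0.03 to 0.14 in the SnAC deletion.

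On the centred values the ranges of subunits and of the 15 assembly factors among the members overlapped in few genes. In the null 27 of 31 subunits of complexes II to V lay above the highest assembly factor, and ATP17, COX6, CYT1 and QCR9 did not. In the SnAC deletion 25 of 30 did, and the exceptions were these 4 genes and QCR8. The highest assembly factor was ATP22 in the null, above 85.7% of all features, and COX14 in the SnAC deletion, above 86.5%. The medians of subunits and assembly factors differed by 0.465 in the null against 0.37 in the SnAC deletion. On the self-hybridisations the subunits lay lower than the assembly factors, by -0.06 in BY4741 and -0.29 in Snf2-2FLAG. Longer subunit genes tended to read higher in the null. The Spearman rho with gene length was 0.51 over 31 subunits in the null, 0.42 over 30 in the SnAC deletion, -0.64 over 30 in BY4741 and -0.08 over 31 in Snf2-2FLAG. The genes of each value share an array and are not independent, so these coefficients are descriptions only.

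On the Snf2-2FLAG self-hybridisation the members were low although both channels held the same strain. Their median was -0.28, with 42 of 48 below the array median, and 2 members were at least 1.5-fold lower, CYT1 and SDH2, where 1.06% of features were. No member was 1.5-fold higher, where 1.59% of features were. The medians were -0.49 for complex II, -0.38 for complex III, -0.28 for complex IV and -0.31 for the ATP synthase, and -0.04 for the assembly factors. On the BY4741 self-hybridisation the members had a median of -0.04, with values from -0.39 for CYT1 to 0.15 for NDE2, and none was 1.5-fold higher or lower, where 0.155% and 0.258% of features were. The subunits therefore separate from other features on a control array too, in the opposite direction, and the part of this in the mutant values was not tested.

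Subtracting the self-hybridisation of the background widened the SnAC deletion values most. The median over members went to 0.63 in the SnAC deletion against 0.42 in the null, and complex II reached 0.98 in the SnAC deletion against 0.57 in the null. Members at least 1.5-fold higher then numbered 26 of 47 in the SnAC deletion, where 7.59% of all features were under the same subtraction, and 14 of 47 in the null, where 6.89% were. After subtraction 5 members passed 2-fold in the SnAC deletion, SDH2, ATP14, SDH1, RIP1 and QCR2, against 1.87% of features. In the null QCR2 alone passed 2-fold, against 1.63% of features. Which mutant reads higher thus turns with this choice: the median difference of null minus SnAC deletion was 0.04 as centred and -0.21 after subtraction.

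**Figure D3:**
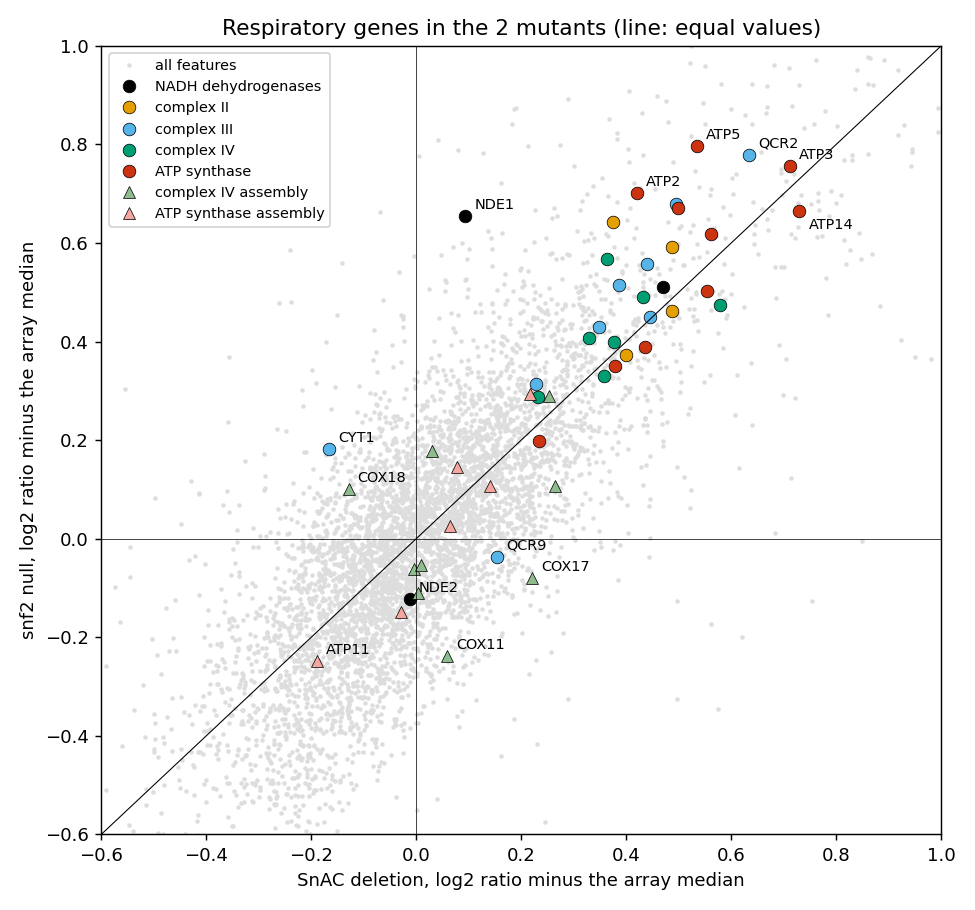
Each symbol is a member, with its log2 ratio minus the array median in the SnAC deletion on the horizontal axis and in the null on the vertical axis, circles for subunits and NADH dehydrogenases, triangles for assembly factors and grey points for all features, some of which lie outside the axes. Subunits gather in the upper right around the line of equal values, and NDE1 lies far above it at 0.09 and 0.655.

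Over all members the mutants gave much the same order, but less so within most complexes. They were hybridised against different wild types and share no control sample. Across 48 members with both values Pearson's r was 0.84 and Spearman's rho 0.85, beside 0.88 and 0.77 over 5790 features. Spearman's rho was 0.5 for the NADH dehydrogenases, -0.2 for complex II, 0.93 for complex III, 0.61 for complex IV and 0.52 for the ATP synthase. It was 0.28 for the assembly factors of complex IV and 0.94 for those of the ATP synthase. Members are not independent replicates and each value comes from 1 array. The null was the higher for 27 members and the SnAC deletion for 21, with a median difference of 0.04. All 3 members that were 1.5-fold higher in the SnAC deletion, ATP14, ATP3 and QCR2, were so in the null as well, which had 8 more: ATP5, ATP2, RIP1, ATP1, NDE1, SDH2, ATP7 and SDH1. SDH1 lay just past that fold at 1.51. COX13 lay just under it in the SnAC deletion at 1.49.

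The central 95% of all features differed between the mutants by -0.37 to 0.39, so a small share of features lies outside by construction. Of the 48 members with both values, NDE1 alone lay outside that range. On the centred values, the members furthest above in the null were NDE1 at 0.56, CYT1 at 0.35 and ATP2 at 0.28. Those furthest above in the SnAC deletion were COX17 at -0.30, COX11 at -0.297 and QCR9 at -0.19. Complex III was higher in the null for 8 of 9 genes, the ATP synthase for 5 of 10, and the complex IV assembly factors for 3 of 9. Over all features the null was higher for 2721 of 5790. With the self-hybridisations subtracted, only QCR2 at 0.08 and QCR6 at 0.06 of complex III stayed higher in the null. CYT1 then read -0.11. Signs were opposite in the mutants for 7 members, 5 of them complex IV assembly factors and the others CYT1 and QCR9. In both mutants all 7 lay inside the central 95% of the self-hybridisation of the background. The share of opposite signs over all features was not computed.

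Genes that work beside the chain but fall outside the naming rule were of mixed behaviour. Of 11 electron carriers, isoforms and linked dehydrogenases, 4 were at least 1.5-fold higher in the null and 0 lower, where 4.28% and 3.27% of all features were. Of 9 measured in the SnAC deletion 3 were higher and 0 lower, where 3.12% and 2.56% of features were. The highest in both was the ADP/ATP carrier AAC1, at 2.34 and 1.75. GUT2 (YIL155C), the mitochondrial glycerol 3-phosphate dehydrogenase that feeds electrons to ubiquinone, read 1.875 in the null, 1.355 in the SnAC deletion and -0.24 in Snf2-2FLAG, with no value in BY4741. PET9, the main ADP/ATP carrier, read 1.03 and 0.73 in the mutants. These carriers resemble each other in sequence and their probes may share some signal, so AAC1 and PET9 are not counted as separate evidence. GUT2 and PET9 are singled out after their values were seen.

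The COX5 and cytochrome c isoform pairs lay on opposite sides of 0 in both mutants, whereas the ADP/ATP carriers AAC1 and PET9 were both above 0. AAC3, another ADP/ATP carrier, read 0.04 in the null and 0.04 in BY4741, with no value in the SnAC deletion. COX5A, the aerobic form of complex IV subunit V, read 0.585 in the null, just past 1.5-fold, against 0.49 in the SnAC deletion, while COX5B, the hypoxic form, was the lowest of this list in the null at -0.51 and read -0.39 in the SnAC deletion. CYC1 (YJR048W), the main cytochrome c, read -0.49 in the null against -0.40 in the SnAC deletion, where it was the lowest of the list. It read -0.02 in BY4741 and -0.475 in Snf2-2FLAG, so its SnAC deletion value was close to that of the self-hybridisation. The minor form CYC7 read 0.15 and 0.19. COX5A, COX5B, CYC1 and CYC7 were picked with their values known.

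**Figure D4:**
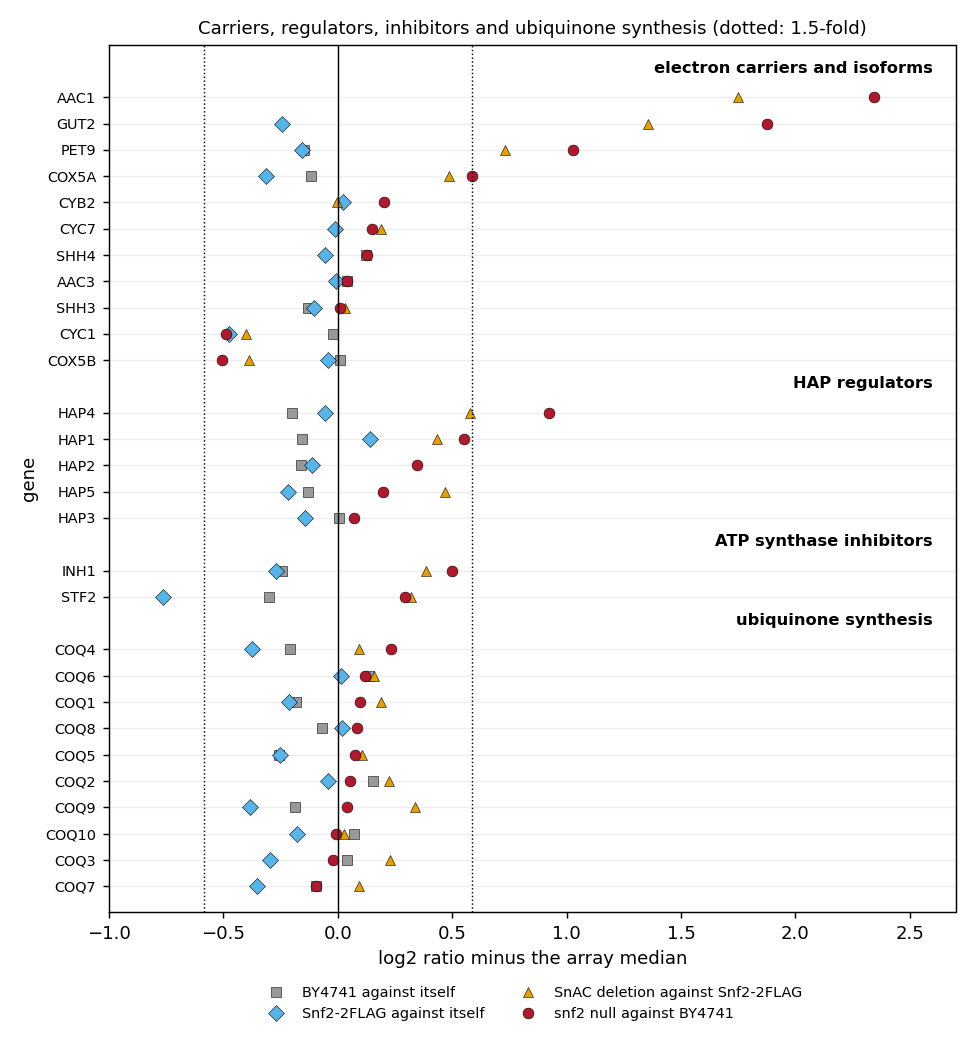
Genes outside the naming rule, 1 per row, with the log2 ratio minus the array median on each of the 4 arrays and dotted lines at 1.5-fold. AAC1, GUT2 and PET9 lie right of the dotted line in both mutants, COX5B and CYC1 lie left of 0, and the ubiquinone synthesis genes stay within 0.34 of 0 in both mutants.

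The genes of the HAP regulators were above 0 wherever they had a value in a mutant. HAP4 (YKL109W), the activating and glucose-controlled subunit of the Hap2/3/4/5 complex, was the highest, at 0.92 in the null, 0.58 in the SnAC deletion, -0.20 in BY4741 and -0.055 in Snf2-2FLAG. It was 1 of 5 genes at least 1.5-fold higher in the null, beside 4.28% of all features, and 0 of 3 passed in the SnAC deletion, beside 3.12%. The lowest were HAP3 at 0.07 in the null and HAP1, a haem-responsive activator, at 0.43 in the SnAC deletion, and HAP2 and HAP3 had no value in the SnAC deletion. The ATP synthase inhibitor INH1 read 0.50 and 0.38 and the stabilising factor STF2 read 0.29 and 0.32. On the Snf2-2FLAG array STF2 read -0.76.

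Ubiquinone synthesis genes had medians of 0.07 in the null against 0.16 in the SnAC deletion, and 0 of 10 and 0 of 9 were 1.5-fold higher or lower. Of all features 4.28% and 3.12% were higher and 3.27% and 2.56% lower, so lists this short could hold none. The highest were COQ4 at 0.235 in the null and COQ9 at 0.34 in the SnAC deletion, and the lowest were COQ7 at -0.09 and COQ10 at 0.03. A list of 37 further assembly and expression factors, of which 33 had a value in each mutant, had medians of -0.01 and -0.02. In the null 2 of 33 were at least 1.5-fold higher and in the SnAC deletion 1 of 33 was, with none lower. These shares are near those of all features, 4.28% and 3.12% higher and 3.27% and 2.56% lower. SHY1 (YGR112W), a complex IV assembly factor, was the highest in both at 0.98 and 0.86, against -0.19 in BY4741 and -0.265 in Snf2-2FLAG. SDH8, an assembly factor of complex II, was the other in the null at 0.71, and read 0.455 in the SnAC deletion. The lowest were MZM1, a complex III assembly factor, at -0.51 in the null, and OXA1, the insertase of the inner membrane, at -0.23 in the SnAC deletion.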

How the data were processed

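Deposited values were 1 log ratio per probe and sample, read as log2. Per the labels, the named strain was in channel 1 and its wild type in channel 2, and 2 scans of opposite dye orientation were named for each sample. The authors' way of combining the scans, the log base, centring, background correction and filters are not given in the sources used here. Base 2 is an assumption, and folds depend on it. RNA was poly(A)-selected, per the labels' protocols.

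Each array was centred on its median over probes. Probes of a gene were then averaged. Platform annotation named 5578 of 6226 probes, and all 49 members matched the R64 gene table. Of the 49, 45 had a value on all 4 arrays. Size thresholds of 1.5-fold and 2-fold stand in for a test. Values on all 4 arrays were given for the highest and lowest member of each complex in each mutant, for members past 2-fold on a centred array (none were), for the 3 largest differences between mutants in each direction, and for SNF2. Context lists give their highest and lowest gene. Other members are named to complete their complex. Members and lists were chosen with earlier results of these data known, and the split of the ATP synthase into head and stalk was made after seeing values. Software was Python 3.11.15 with pandas 2.3.3, numpy 2.4.6 and matplotlib 3.10.9, tested on simulated data. Promoter motifs were planned and not run, since no sequence was used here.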

Additional observations from a re-analysis of the deposited data

How the results depend on the processing

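Over 118 recomputed values, 98 kept their direction and size class, where a median counts as moved past the robust SD of the self-hybridisation of its background. The 98 include values that could not change, those for single probes and for mitochondrially encoded members left out. In the null, every median and count kept its class except the count of 1.5-fold higher members, which went from 11 to 0 at a fold of 2. In the SnAC deletion that count went from 3 to 0 at a fold of 2, to 0 as deposited and to 26 with the self-hybridisation subtracted. As deposited, medians in the SnAC deletion turned to -0.04 for all members, -0.322 for ATP synthase assembly factors, -0.3 for NADH dehydrogenases, -0.006 for complex III, -0.03 for complex IV and -0.364 for complex IV assembly factors, and stayed above 0 for the ATP synthase at 0.1235 and complex II at 0.0505. These shifts follow from the array median of -0.39. With the self-hybridisation subtracted, medians moved to 0.627 for all members, 0.828 for the ATP synthase, 0.41 for NADH dehydrogenases, 0.9815 for complex II, 0.723 for complex III and 0.614 for complex IV. The median difference between mutants went from 0.039 to 0.436 as deposited and turned to -0.206 after subtraction. Restriction to members on all 4 arrays, another centring, and removal of assembly factors changed no class. Single probes and removal of mitochondrially encoded members could change none, since each member had 1 probe and none was mitochondrially encoded. No paired analysis was possible because each group had 1 array. Promoter motifs were not run. No signal level or background was used, so low expression could not be told from a ratio near 0.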
